A study of Rattus norvegicus with 12 samples.

Results

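Genes of the proteasome were followed in the rat pubocaudalis, which belongs to the pelvic floor, after a simulated birth injury with or without lactation. The members were taken by symbol, as every gene named Psma, Psmb, Psmc, Psmd, Psme, Psmf or Psmg followed by a number that had a mean of at least 1 CPM (TMM-scaled counts, comparable between libraries of different depth) in at least 1 of the 4 groups. The symbols matched 46 of the 30206 genes in the table, and 44 reached that level. The other 2, Psma8 and the pseudogene Psme1-ps1, had at most 4 and 10 counts in any library. Of the 44, 38 are constitutive, 4 belong to the immunoproteasome (Psmb8, Psmb9, Psme1 and Psme2), and 2, Psme3ip1 and Psmc3ip, only carry a subunit's name because their products bind one. Psmb10, Psme3, Psmd9 and Psmd10 were not analysed here.

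All rats were female Sprague-Dawley animals of 3 months that had been pregnant and received a simulated birth injury (SBI), a vaginal balloon distention shortly before delivery. Rats labelled SBI had their pups removed after delivery and did not lactate, and rats labelled SBI + Lac nursed their pups. The muscle was taken 1 week after SBI (1wk SBI without and 1wk SBI + Lac with lactation) or 3 weeks after it (3wk SBI, and 3wk SBI + Lac at the end of nursing). Each group had 3 libraries, and each library held the pooled RNA of 2 rats, so n = 3 counts pools and not rats. No uninjured muscle was compared here, so the levels describe lactation and time after injury and not the injury itself.

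The proteasome degrades proteins that carry chains of ubiquitin. Its barrel-shaped core is built from rings of alpha subunits, which gate the entrance, and rings of beta subunits, of which Psmb5, Psmb6 and Psmb7 cut the substrate, while a cap of ATPases and non-ATPase subunits binds, unfolds and deubiquitinates the substrate. Interferon-gamma makes cells exchange the cutting subunits for Psmb8, Psmb9 and Psmb10 and add the activator of Psme1 and Psme2, which favours peptides for presentation on MHC class I molecules. This immunoproteasome is abundant in leukocytes, whereas skeletal muscle fibers use the constitutive form for much of their protein turnover.

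Upstream sequences of a pair of immunoproteasome genes and a pair of constitutive cutting subunits are shown so that the letters that interferon-driven and NRF factors are known to read can be set beside the levels. The 250 bases before the start of Psmb8 (chr20:4657032-4657281, minus strand), Psme2 (chr15:33052752-33053001, minus strand), Psmb5 (chr15:32047380-32047629, minus strand) and Psmb6 (chr10:55737638-55737887, plus strand) were taken from RefSeq on GRCr8. Capitals mark a match to 1 of 3 motifs searched on both strands: the STAT site TTCNNNGAA, the core of the interferon-stimulated response element GAAANNGAA, and the core of the antioxidant response element TGACNNNGC, which is read by the NRF factors that drive constitutive subunit genes.
Psmb8 promoter: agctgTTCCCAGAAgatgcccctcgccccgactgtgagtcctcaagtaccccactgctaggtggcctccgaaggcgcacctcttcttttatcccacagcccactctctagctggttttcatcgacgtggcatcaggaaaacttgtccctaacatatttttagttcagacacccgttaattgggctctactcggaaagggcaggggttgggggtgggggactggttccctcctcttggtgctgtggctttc
Psme2 promoter: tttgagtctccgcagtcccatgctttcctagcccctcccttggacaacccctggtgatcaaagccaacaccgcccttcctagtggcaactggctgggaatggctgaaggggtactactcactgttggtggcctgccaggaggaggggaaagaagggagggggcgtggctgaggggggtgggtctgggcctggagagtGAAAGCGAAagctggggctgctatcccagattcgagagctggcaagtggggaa
Psmb5 promoter: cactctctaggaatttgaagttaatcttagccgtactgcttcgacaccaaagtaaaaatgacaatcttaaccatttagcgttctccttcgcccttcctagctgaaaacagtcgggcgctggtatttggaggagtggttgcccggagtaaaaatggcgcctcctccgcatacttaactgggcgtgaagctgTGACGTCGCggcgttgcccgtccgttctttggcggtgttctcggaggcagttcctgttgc
Psmb6 promoter: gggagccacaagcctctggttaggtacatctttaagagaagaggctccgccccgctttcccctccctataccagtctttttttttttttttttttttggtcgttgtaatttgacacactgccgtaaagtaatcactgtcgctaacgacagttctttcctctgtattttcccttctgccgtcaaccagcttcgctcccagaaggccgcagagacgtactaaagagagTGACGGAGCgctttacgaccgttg
The Psmb8 window held a STAT site beginning 245 bases before the start, and the Psme2 window held an interferon response core beginning 53 bases before the start. The Psmb5 and Psmb6 windows each held an antioxidant core, beginning 60 and 24 bases before their starts. Psmb9 and Psme1 held none of the 3 motifs in this window. Over the 34 constitutive genes with a promoter in the table, 6 held the antioxidant core, 5 the interferon response core and 3 the STAT site, where 10.1%, 8.12% and 7.67% of all 33469 promoters of this length held them. A match is a description of letters, and no factor's binding was measured.

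Library depth ran from 10082734 to 75634391 counts, and both extremes lay in 3wk SBI. Of the 9 fiber markers in the table, each was detected in all 12 libraries, and their summed level ran from 78114 to 192744 CPM, so the tissue was muscle by its defining genes. Summed leukocyte markers (19 genes) ran from 461 to 549 CPM in 1wk SBI, from 279 to 407 in 1wk SBI + Lac, from 380 to 751 in 3wk SBI and from 259 to 417 in 3wk SBI + Lac, with Cd79a, Cd74 and Ptprc present in all libraries. Milk and mammary genes (7) summed to 0 to 0.012 CPM in the non-lactating libraries, to 0.689 to 3.11 in 1wk SBI + Lac and to 0.33 to 39.5 in 3wk SBI + Lac. The deepest library, 3wk SBI library 3, stood apart in the proteasome genes. It was the lowest of its group for 36 of the 38 constitutive genes, against 36.4% of all genes tested. It was the highest of its group for all 4 immunoproteasome genes, and it also had the highest leukocyte sum of the 12. Lactation differences at 3 weeks are therefore also given without it where that moved them by more than 1.5-fold or turned their sign.

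Constitutive levels varied little over the whole experiment. The highest of the 12 libraries exceeded the lowest by 1.37-fold at the median of the 38 genes, from 1.18-fold for the alpha subunit Psma2 to 1.73-fold for the assembly chaperone Psmg4. The same ratio was 6.08 for Psmb8, 3.52 for Psmb9, 1.67 for Psme1 and 1.84 for Psme2. Within groups, the median coefficient of variation of the constitutive genes was 6.78% without and 6.04% with lactation at 1 week, and 12.8% without and 6.81% with it at 3 weeks, against 12.6%, 11.8%, 17.7% and 13.3% in the same order over all 14599 genes tested. Summed over the 38 genes, the level lay between 2865 and 3371 CPM in 11 libraries and at 2586 CPM in 3wk SBI library 3.

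**Figure D1:**
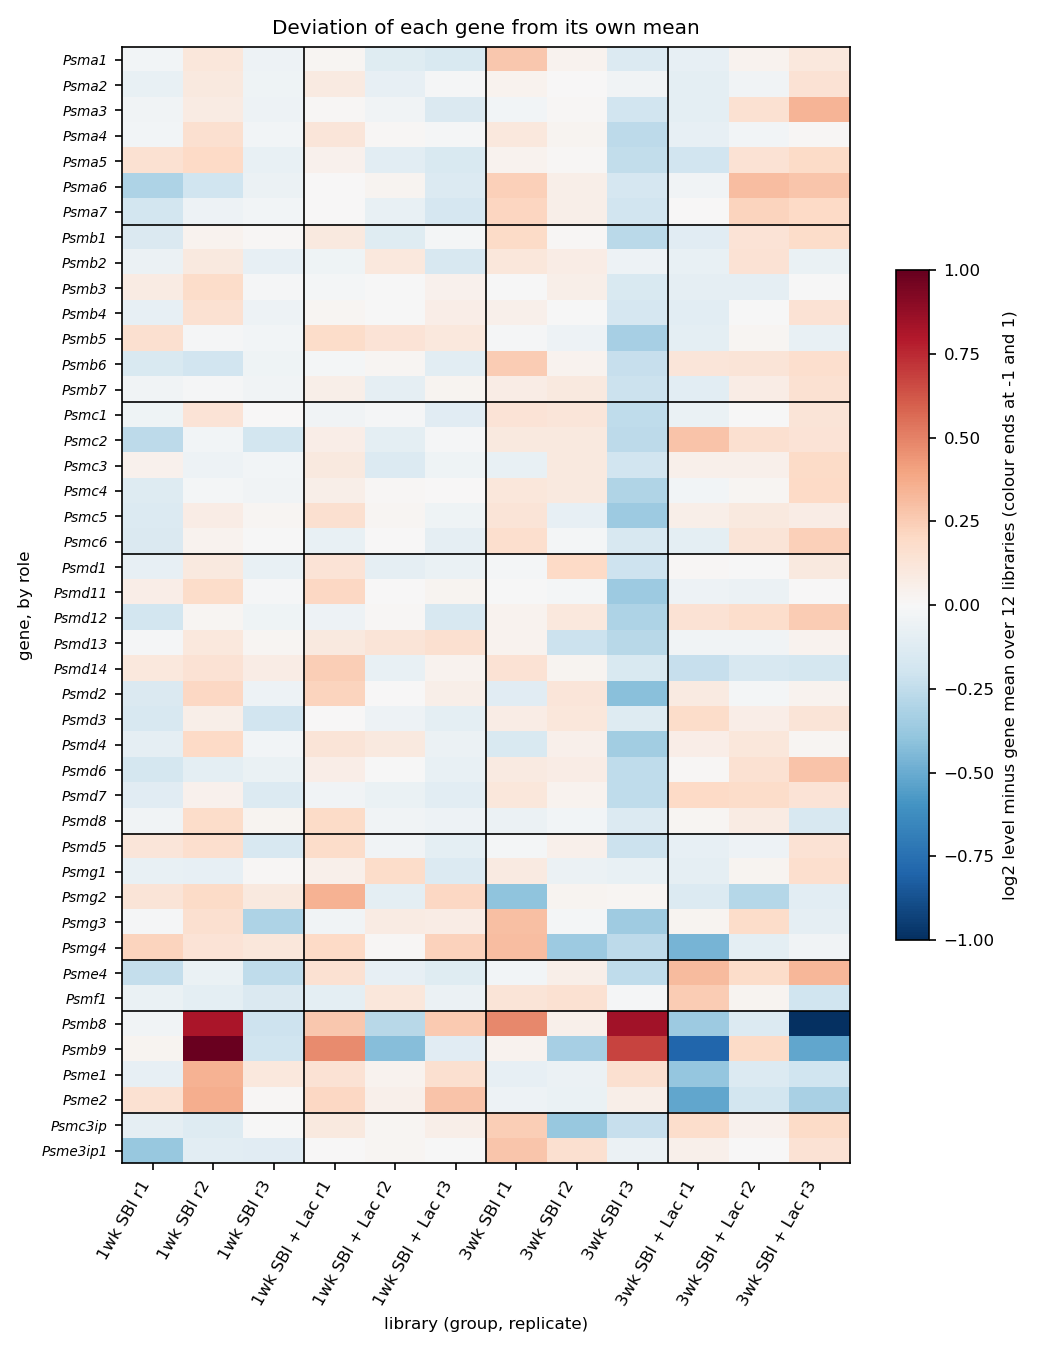
Each cell shows the log2 level of 1 gene (rows, ordered by role) in 1 library (columns, in the 4 groups) minus that gene's mean over the 12 libraries, with the colour scale ending at -1 and 1. Of the 456 constitutive cells 91.4% lie within 0.25 of 0, and their median deviation was -0.22 in 3wk SBI library 3. The rows of Psmb8 (-1.69 to 0.84) and Psmb9 (-0.80 to 0.99) have the strongest colours, those of Psme1 and Psme2 paler ones. The median deviation of the 4 immunoproteasome genes was 0.59 in 1wk SBI library 2 and 0.42 in 3wk SBI library 3. It was -0.45 in 3wk SBI + Lac library 1 and -0.42 in 3wk SBI + Lac library 3.

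The comparison of lactating with non-lactating rats at 1 week asked whether nursing altered the proteasome genes early after injury. No member passed the test: edgeR's quasi-likelihood test with Benjamini-Hochberg adjustment called 0 of 44 at an adjusted p under 0.05, where it called 0.569% of all genes tested. At an unadjusted p under 0.05 the count was also 0 of 44, against 18.9% of all genes, and DESeq2 called 0 of 44, against 5.55%. The median log2 fold change was 0.02 over the 38 constitutive genes and -0.09 over the 4 immunoproteasome genes, beside -0.00 over all genes. The data bounded the constitutive changes tightly: the 95% interval lay within 0.5 log2 units of 0 for 38 of 38 constitutive genes, as it did for 36.1% of all genes tested.

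By role, the largest 1-week differences were small in every part of the constitutive complex. Psma5, an alpha ring subunit, stood at 48.0, 49.4 and 41.0 CPM in 1wk SBI and at 44.5, 40.1 and 38.8 CPM in 1wk SBI + Lac (log2 fold change -0.17, edgeR adjusted p = 0.47). Psmb5, which carries the chymotrypsin-like activity, stood at 80.7, 71.4 and 71.0 CPM without lactation and at 82.1, 79.6 and 77.5 CPM with it (0.10, edgeR adjusted p = 0.63). Both pairs of groups overlapped. Psmb6, the caspase-like subunit, and Psmb7, the trypsin-like subunit, differed by 0.09 and 0.03. Psmc2, a cap ATPase, differed by 0.14, Psmd6, a cap lid subunit, by 0.11, the core assembly chaperone Psmg1 by 0.08, and Psme4, an activator that opens the core without ubiquitin, by 0.17 (edgeR adjusted p = 0.46), the largest of the 38. Groups did not overlap for 3 members, all higher with lactation (against 14.3% of all genes higher and 14.1% lower): the cap ATPase Psmc4 at 50.6 to 54.6 against 55.4 to 57.7 CPM, Psme3ip1 (0.20, edgeR adjusted p = 0.33) and Psmc3ip (0.13). Psme3ip1 binds a nuclear proteasome activator and Psmc3ip acts in meiotic recombination.

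Psmb8 and Psmb9 had the widest spread of the 44 members within both 1-week groups, whereas the coefficients of variation of Psme1 and Psme2 were 14.9% and 12.2% without and 4.50% and 8.31% with lactation. Psmb8, the inducible counterpart of Psmb5, stood at 5.05, 9.19 and 4.47 CPM in 1wk SBI and at 6.26, 4.27 and 6.24 CPM in 1wk SBI + Lac, a log2 fold change of -0.16 (95% interval -0.88 to 0.56, edgeR adjusted p = 0.83). Psmb9, the counterpart of Psmb6, stood at 5.66, 11.1 and 4.83 CPM without and at 7.74, 4.10 and 5.14 CPM with lactation, a log2 fold change of -0.35 (-1.16 to 0.45, edgeR adjusted p = 0.64). In both genes library 2 of 1wk SBI was above the other 1-week libraries, the groups overlapped, and without that library the log2 fold changes turned to 0.23 and 0.11. Psme1 stood at 50.7, 68.1 and 57.5 against 59.1, 55.0 and 59.8 CPM, and Psme2 at 24.2, 27.9 and 22.0 against 25.1, 22.5 and 26.6 CPM. Both activator genes overlapped fully, with log2 fold changes of -0.02 (-0.27 to 0.23) and 0.00 (-0.25 to 0.25).

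At 3 weeks, near the end of nursing, the same comparison gave the 4 immunoproteasome genes lower values in the lactating group and the constitutive genes slightly higher ones, but no member passed the main test. edgeR called 0 of 44 at an adjusted p under 0.05, against 2.54% of all genes tested, and 3 of 44 had an unadjusted p under 0.05, against 21.1%: Psmb8 and Psme2, lower, and Psme4, higher. DESeq2 called 2 of 44, Psmb8 at -1.05 (adjusted p = 0.045) and Psme4 at 0.35 (adjusted p = 0.041), where it called 7.34% of all genes. The median log2 fold change was -0.42 over the 4 immunoproteasome genes and 0.09 over the 38 constitutive genes, beside -0.02 over all genes. For the immunoproteasome 4 of 4 estimates were below 0, and for the constitutive genes 31 of 38 were above 0. Without 3wk SBI library 3, 18 of 38 were above 0, the constitutive median was -0.01 and the immunoproteasome median -0.22. The immunoproteasome median was -0.26 without 3wk SBI + Lac library 1 and -0.67 without 3wk SBI + Lac library 2, and the constitutive median 0.14 without 3wk SBI library 1.

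Psmb8 showed the widest difference. Its level was 7.29, 5.39 and 9.36 CPM in 3wk SBI and 4.01, 4.70 and 1.54 CPM in 3wk SBI + Lac. The groups did not overlap, and the log2 fold change was -1.02 (SE 0.36, 95% interval -1.79 to -0.25, edgeR adjusted p = 0.13). The lowest value, in 3wk SBI + Lac library 3, rested on 14 counts, for which the exact Poisson 95% interval is 7.65 to 23.5 counts, counting error only. The log2 fold change was -0.76 without that library and -0.75 without 3wk SBI library 3 (edgeR adjusted p = 0.26 and 0.42).

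Psmb9 stood at 5.69, 4.40 and 8.93 CPM in 3wk SBI and at 3.16, 6.34 and 3.85 CPM in 3wk SBI + Lac. These groups overlapped, and the log2 fold change of -0.52 (-1.37 to 0.34, edgeR adjusted p = 0.48) became -0.11 without 3wk SBI library 3. The activator subunits had narrower spreads. Psme1 stood at 50.6, 51.5 and 59.7 CPM without lactation and at 40.9, 48.8 and 46.7 CPM with it, and Psme2 at 21.0, 20.8 and 22.7 against 15.2, 19.2 and 17.4 CPM. Neither pair of groups overlapped, with log2 fold changes of -0.25 (-0.51 to 0.00, edgeR adjusted p = 0.24) and -0.32 (-0.58 to -0.06, edgeR adjusted p = 0.15), which were -0.17 and -0.28 without 3wk SBI library 3. Psme1 and Psme2 have 2 and 3 pseudogenes in RefSeq and Psmb6 has 2, whereas Psmb8, Psmb9 and Psmb5 have 0. At least 1 is listed for 18 of the 44 members. How reads shared with such copies were assigned is not given in the sources used here.

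**Figure D2:**
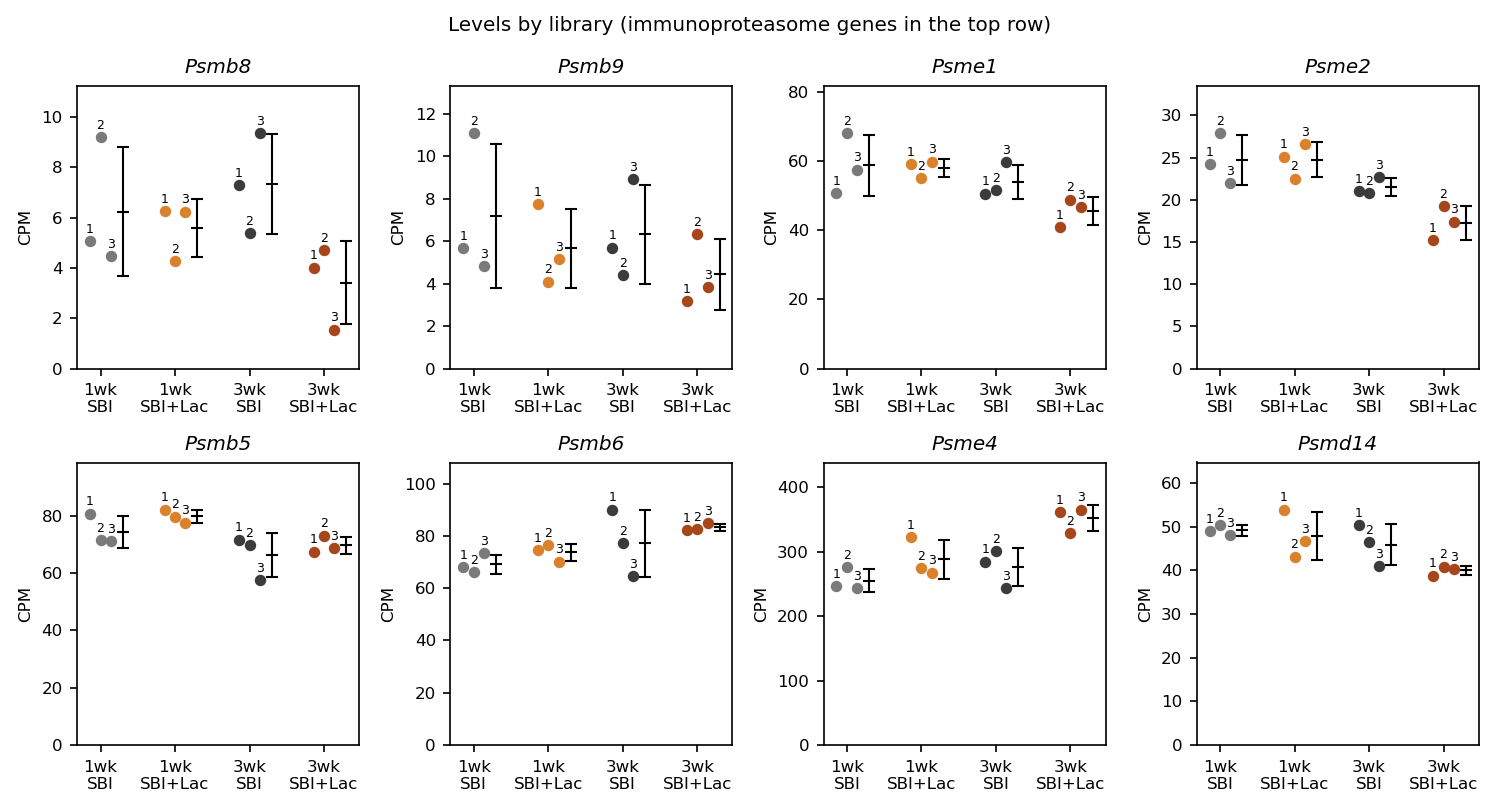
Points give the CPM of 8 genes in each library (numbered 1 to 3) of the 4 groups, with the mean and SD (n = 3) beside them, on axes that start at 0. In the top row the 3wk SBI + Lac libraries lie below all 3wk SBI libraries for Psmb8, Psme1 and Psme2 but not for Psmb9, and in the bottom row Psmb5 and Psmb6 overlap at both times while Psme4 is higher and Psmd14 lower in 3wk SBI + Lac than in 3wk SBI.

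Among constitutive members of the cap at 3 weeks, estimates were above 0 for 6 of 6 ATPases and 10 of 11 non-ATPase subunits, with medians of 0.12 and 0.14. In the core, 6 of 7 alpha subunits and 5 of 7 beta subunits were above 0, with medians of 0.11 and 0.05, and of the 5 assembly chaperones 3 were. When 3wk SBI library 3 was left out, these counts were 4 of 6, 8 of 11, 4 of 7, 0 of 7 and 1 of 5, with medians of 0.03 for both parts of the cap, 0.01 for the alpha and -0.03 for the beta subunits. Groups did not overlap for 4 members that were higher and 4 that were lower with lactation, against 11.9% and 10.4% of all genes. The lower ones were Psmb8, Psme1, Psme2 and Psmd14, and the higher ones Psme4, Psmd12, Psmd7 and Psmc2.

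Psme4 stood at 284, 301 and 243 CPM in 3wk SBI and at 361, 328 and 365 CPM in 3wk SBI + Lac, a log2 fold change of 0.35 (SE 0.12, 95% interval 0.09 to 0.61, edgeR adjusted p = 0.12), and 0.27 without 3wk SBI library 3. Psmd14, the deubiquitinase of the cap, stood at 50.3, 46.4 and 40.9 CPM against 38.8, 40.8 and 40.3 CPM, a log2 fold change of -0.19 (edgeR adjusted p = 0.31). Its partner in the lid, Psmd7, went the other way, with 94.0, 89.2 and 73.0 CPM against 99.8, 98.5 and 95.5 CPM (0.20, edgeR adjusted p = 0.28). Psmd12, another lid subunit, differed by 0.24 (edgeR adjusted p = 0.24), Psmc2 by 0.22 and the alpha subunit Psma3 by 0.20. Leaving out 3wk SBI library 3 gave 0.10 for Psmd7, 0.12 for Psmd12, 0.10 for Psmc2, 0.14 for Psma3 and -0.27 for Psmd14. The cutting subunits differed less: Psmb5 stood at 71.6, 69.7 and 57.5 against 67.4, 73.0 and 68.6 CPM, with log2 fold changes of 0.08 for Psmb5, 0.11 for Psmb6 and 0.05 for Psmb7, which turned to -0.02, -0.00 and -0.04 without 3wk SBI library 3. The core assembly chaperone Psmg2 (-0.10, or -0.03 without 3wk SBI library 3) and the inhibitor Psmf1 (-0.03, or -0.09) were close to 0. The 95% interval lay within 0.5 log2 units of 0 for 36 of 38 constitutive genes, against 33.5% of all genes tested, and for 0 of 4 immunoproteasome genes.

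**Figure D3:**
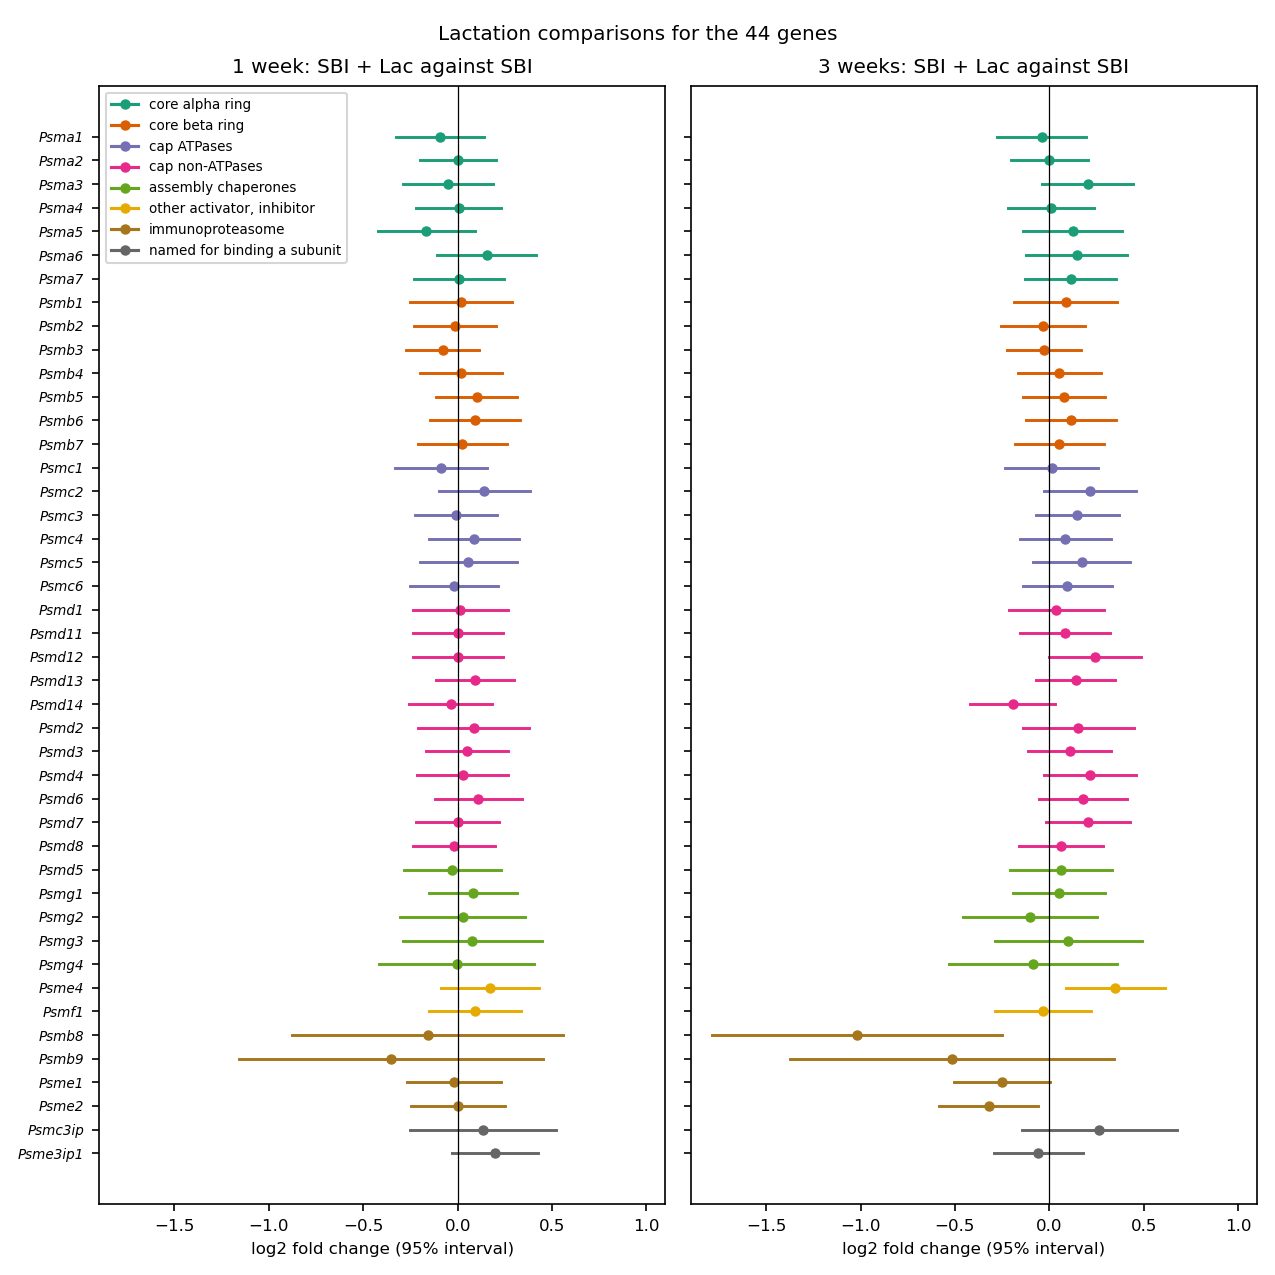
Points and bars give the edgeR log2 fold change of lactating against non-lactating libraries with its 95% interval for the 44 genes (rows, coloured by role), at 1 week (left) and 3 weeks (right). Constitutive estimates lie between -0.17 and 0.17 at 1 week and between -0.19 and 0.35 at 3 weeks, and all 4 immunoproteasome estimates lie below 0 at 3 weeks, down to -1.02 for Psmb8.

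Whether the lactation effect itself changed between 1 and 3 weeks was tested as an interaction. edgeR called 0 of 44 members, against 0.00685% of all genes, with 0 of 44 at an unadjusted p under 0.05, against 4.42%, and DESeq2 called 0, against 0.0865%. The smallest members' p-values belonged to Psme2 (-0.32, 95% interval -0.68 to 0.04) and Psmb8 (-0.86, -1.91 to 0.19), both with an edgeR adjusted p of 0.999. For Psme1 the change was -0.23 (-0.59 to 0.12) and for Psmb9 -0.16 (-1.34 to 1.01), and for Psmb5, Psmb6 and Psmb7 it was -0.02, 0.02 and 0.03. In the other roles the changes furthest from 0 were 0.29 for Psma5, 0.07 for Psmb1, 0.16 for the cap ATPase Psmc3, 0.24 for Psmd12, -0.13 for Psmg2 and 0.18 for Psme4. Without 3wk SBI library 3 the changes of Psmb8, Psme2, Psme1 and Psmb9 were -0.60, -0.28, -0.15 and 0.24, those of Psmb5, Psmb6 and Psmb7 -0.12, -0.10 and -0.07, and those of Psmd12, Psme4, Psmc3, Psmg2 and Psmb1 0.12, 0.09, 0.09, -0.06 and -0.05. The 3-week and 1-week differences of these genes were thus not shown to differ.

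The balance between inducible and constitutive cutting subunits was measured as the log2 ratio of the counts of Psmb8 to Psmb5 and of Psmb9 to Psmb6 in each library. At 3 weeks Psmb8 had 10.2%, 7.73% and 16.3% of the counts of Psmb5 in 3wk SBI and 5.94%, 6.44% and 2.24% in 3wk SBI + Lac. These did not overlap, and the mean log2 ratio differed by -1.30 (-4.50 ± 0.85 with lactation against -3.20 ± 0.54 without, SD, n = 3; exact two-sided permutation p = 0.10, the smallest that 3 against 3 allows; adjusted over the 4 ratios tested, p = 0.40). The difference was -1.01 without 3wk SBI library 3 and -0.81 without 3wk SBI + Lac library 3. Psmb9 had 6.31%, 5.69% and 13.9% of the counts of Psmb6 in 3wk SBI and 3.84%, 7.67% and 4.53% in 3wk SBI + Lac, a difference of -0.63 with overlapping groups (exact permutation p = 0.30, adjusted p = 0.60), which was -0.23 without 3wk SBI library 3. At 1 week the differences were -0.21 and -0.39 (exact permutation p = 0.80 and 0.60, adjusted p = 0.80 for both), and became 0.14 and 0.00 without 1wk SBI library 2. No ratio passed the test, which could not reach 0.05 at this group size.

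Leukocyte markers were mostly lower in the lactating groups. All 17 leukocyte markers tested had log2 fold changes below 0 with lactation, at 1 week (median -0.82) and at 3 weeks (median -0.80), and 10 and 4 of the 19 in the table did not overlap between groups, against the 14.1% and 10.4% of all genes lower without overlap, while fiber markers were above 0 in 9 of 9 at 1 week (median 0.49) and 7 of 9 at 3 weeks (median 0.29). The 3-week values leaned on single libraries. Without 3wk SBI library 3, 12 of 17 leukocyte markers were below 0 (median -0.30), the sums of 3wk SBI were 380 and 402 CPM against 259 to 417 with lactation, and without 3wk SBI + Lac library 2 the median was -1.76. In pooled tissue RNA, fewer cells of a type and less RNA per cell cannot be told apart. Across the 12 libraries the summed leukocyte level went with the level of Psmb8 (Pearson's r = 0.77, permutation p adjusted over 12 = 0.031; Spearman's rho = 0.64, adjusted p = 0.059) and of Psmb9 (r = 0.71, adjusted permutation p = 0.031; rho = 0.71, adjusted p = 0.031). For Psme1 and Psme2 r was 0.54 and 0.45 (rho 0.55 and 0.52), with adjusted permutation p-values of 0.11 and 0.16 for r and 0.11 and 0.12 for rho. The single gene Cd74 outweighed all other markers of the sum together in every library. It gave 435 of the 751 CPM in 3wk SBI library 3 and 256 of the 402 CPM in 3wk SBI library 2. Without Cd74 in the sum, r and rho were 0.72 and 0.69 for Psmb8 and 0.72 and 0.78 for Psmb9. For Psme1 they were 0.61 and 0.69 (permutation p = 0.036 and 0.016, unadjusted). For Psme2 they were 0.55 and 0.70 (permutation p = 0.066 and 0.014, unadjusted). For Psmb6 they were -0.80 and -0.83, and for Psmb5 -0.33 and 0.10.

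The relation was not even over the libraries. The permutations exchanged libraries freely between groups, so the p-values do not separate differences between groups from those between libraries of a group. Within the 6 libraries of 1 week r was 0.54 for Psmb8 and 0.57 for Psmb9 (exact permutation p = 0.29 and 0.24), and within the 6 of 3 weeks it was 0.86 and 0.92 (exact permutation p = 0.021 and 0.014, unadjusted), with rho of 0.77 and 0.89 (exact permutation p = 0.10 and 0.033). Without the 2 libraries farthest from the median leukocyte sum, 3wk SBI library 3 and 3wk SBI + Lac library 3, r was 0.51 and rho 0.37 for Psmb8 (permutation p = 0.13 and 0.30), and r was 0.65 and rho 0.53 for Psmb9 (permutation p = 0.041 and 0.12), so both relations were weaker without those libraries. The 2 were chosen by their leukocyte sum, and a narrower range of sums tends to lower r by itself. Psmb6 ran the other way (r = -0.73, rho = -0.74, adjusted permutation p = 0.031 for both), with r = -0.90 at 1 week (exact permutation p = 0.019), -0.86 at 3 weeks (exact permutation p = 0.062) and -0.61 without the farthest 2 (permutation p = 0.062). Psmb5 gave r = -0.45 and rho = -0.08 (adjusted permutation p = 0.16 and 0.82). The part of leukocyte content in the lactation differences was not tested.

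**Figure D4:**
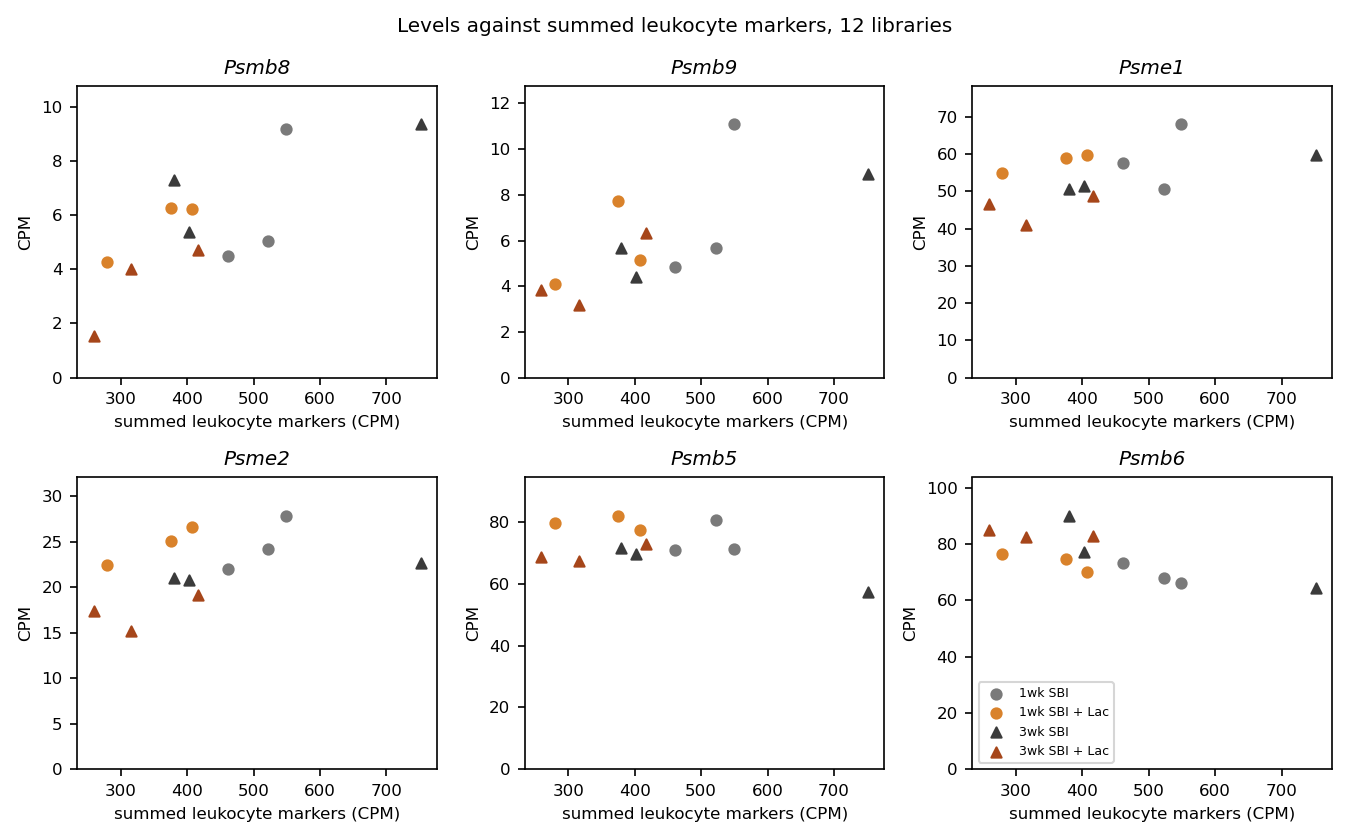
Each point is 1 of 12 libraries, with the summed CPM of 19 leukocyte markers on the x axis and the CPM of the named gene on the y axis (circles 1 week, triangles 3 weeks, colours by group). Psmb8 and Psmb9 climb with the sum (r = 0.77 and 0.71), with 3wk SBI library 3 at the far right, and Psmb6 declines (r = -0.73).

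The comparison of 3 weeks with 1 week mixes time with a difference in counting, since only the 3-week values carry decimals. It shares its libraries with the lactation comparisons, so its values stand beside them and not as a second test. Without lactation edgeR called 0 of 44 members, against 5.05% of all genes, and 1 of 44, Psme3ip1 (0.32), had an unadjusted p under 0.05, against 21.2%. Without 3wk SBI library 3 edgeR called 1 of 44, Psme3ip1 (0.41, adjusted p = 0.026), against 14.1% of all genes in that fit. DESeq2 called 0, against 10.2%. The constitutive median was 0.00 and the immunoproteasome median -0.13, beside -0.01 over all genes, with the constitutive genes from -0.28 (Psmg4) to 0.23 (Psma6). Psmb5 was at -0.17, the lid subunits Psmd11 and Psmd13 at -0.20 and -0.19, Psmc2 at 0.13, Psmf1 at 0.19, Psmb8 at 0.26, Psmb9 at -0.14, Psme1 at -0.12 and Psme2 at -0.20. Without 3wk SBI library 3 the medians were 0.08 and -0.22, and Psmb8 was at 0.00, Psmb9 at -0.54, Psme1 at -0.20, Psmb5 at -0.07, Psmd11 at -0.09, Psmd13 at -0.13, Psmg4 at -0.19 and Psmc2 at 0.25.

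With lactation, edgeR called 1 of 44 members, Psme2, which fell (against 2.01% of all genes called and 1.33% called lower), and DESeq2 also called 1, Psme2, against 6.02%. Psme2 stood at 25.1, 22.5 and 26.6 CPM in 1wk SBI + Lac and at 15.2, 19.2 and 17.4 CPM in 3wk SBI + Lac, a log2 fold change of -0.52 (SE 0.12, 95% interval -0.78 to -0.27, edgeR adjusted p = 0.040). The groups did not overlap, but the call was lost when any of the 6 libraries was left out (log2 fold change -0.61 to -0.43, edgeR adjusted p = 0.054 to 0.18). The call was also lost when those 6 libraries were thinned to equal depth (-0.47, edgeR adjusted p = 0.096) and with a replicate block (-0.53, edgeR adjusted p = 0.070).

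Its partner Psme1 stood at 59.1, 55.0 and 59.8 against 40.9, 48.8 and 46.7 CPM, a difference of -0.35 (edgeR adjusted p = 0.13), again without overlap. Psmb8 was at -0.60 (-1.36 to 0.16) and Psmb9 at -0.30 (-1.15 to 0.54). All 4 immunoproteasome genes were below 0, with a median of -0.44 beside -0.02 over all genes, and the constitutive median was 0.04. At an unadjusted p under 0.05 there were 7 of 44 members, against 18.1% of all genes: Psme2, Psme1, Psmd14 (-0.26) and Psmg2 (-0.35), lower, and Psme4 (0.29), Psmd7 (0.24) and Psmd12 (0.26), higher. Groups did not overlap for 8 members that were lower, against 14.7% of all genes, and 7 that were higher, against 13.4%. Among these were Psma7 (0.22), Psmc2 (0.21), Psmg4 (-0.36) and Psmb5 at 82.1, 79.6 and 77.5 against 67.4, 73.0 and 68.6 CPM (-0.19, edgeR adjusted p = 0.33).

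Genes that act with the proteasome were read from lists of related genes. Their counts stand against all genes, of which at 1 and 3 weeks edgeR called 0.569% and 2.54%, DESeq2 called 5.55% and 7.34%, and 18.9% and 21.1% had an unadjusted p under 0.05. Of 7 genes of proteasome biogenesis and transcription tested, edgeR called 1 in the lactation comparisons, Akirin2, which carries proteasomes into the nucleus and rose at 3 weeks. It stood at 38.3, 39.8 and 36.3 CPM in 3wk SBI and at 51.0, 47.0 and 48.3 CPM in 3wk SBI + Lac, a log2 fold change of 0.36 (95% interval 0.17 to 0.55, edgeR adjusted p = 0.046). The call was lost when any of the 6 libraries compared was left out (0.32 to 0.40, edgeR adjusted p = 0.054 to 0.15), and with a replicate block (0.35, adjusted p = 0.083). DESeq2 kept it on all 12 libraries (adjusted p = 0.0069) and lost it on the 6 compared (0.35, adjusted p = 0.097). At 1 week its values were 38.4, 39.5 and 38.0 against 46.9, 44.2 and 41.6 CPM (0.20, edgeR adjusted p = 0.24), and the groups overlapped at neither time. The chaperone of core assembly Pomp differed by 0.21 at 3 weeks and the factors that induce subunit genes, Nfe2l1 and Nfe2l2, by -0.11 and 0.05 (-0.23 and 0.14 without 3wk SBI library 3), with no call. Ecpas, which holds cap and core together, differed by 0.23 at 1 week and 0.20 at 3 weeks (0.06 without that library).

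Of 13 proteasome-bound partners tested, 0 were called by edgeR at either time, with 1 at 1 week and 4 at 3 weeks at an unadjusted p under 0.05, and DESeq2 called 0 and 2 of them. The shuttles Ubqln4 and Ubqln1, which bring ubiquitinated substrates, differed by 0.26 and 0.25 at 3 weeks, and at 1 week the deubiquitinase Uchl5 differed by 0.28 and Ubqln1 by 0.20. The list medians were 0.10 and 0.11. Of 5 ubiquitin genes 0 were called by edgeR or DESeq2, with 0 at 1 week and 1 at 3 weeks at an unadjusted p under 0.05, and the activating enzyme Uba1 differed by -0.25 at 3 weeks. The muscle ligases of atrophy, Trim63 and Fbxo32, differed by 0.21 and 0.38 at 1 week and by -0.04 and -0.27 at 3 weeks (-0.13 and -0.42 without 3wk SBI library 3), and 0 of them passed in edgeR (0 also unadjusted) or DESeq2.

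The class I antigen processing genes, which handle the peptides the immunoproteasome makes, had a median below 0 with lactation at 3 weeks. All 9 tested were below 0 (median -0.33, beside -0.02 over all genes), and 0 were called by edgeR or DESeq2, with 2 at an unadjusted p under 0.05. B2m, the light chain of class I molecules, stood at 481, 341 and 569 CPM in 3wk SBI and at 280, 394 and 343 CPM in 3wk SBI + Lac (-0.45, edgeR adjusted p = 0.19), with overlap. Pdia3, which helps load the peptide, differed by -0.33 and the chaperone Canx by -0.21, and at 1 week by -0.35 and -0.21. Tap1, the peptide transporter that lies beside Psmb9 in the rat genome, differed by -0.58 at 3 weeks (edgeR adjusted p = 0.34), and Nlrc5, the activator of class I genes, by -0.75 (edgeR adjusted p = 0.41). In the fit without 3wk SBI library 3, 7 of 9 were below 0 with a median of -0.15, and B2m was at -0.28, Pdia3 at -0.15, Tap1 at -0.17 and Nlrc5 at -0.24. At 1 week 5 of 9 were below 0, with a median of -0.13, 0 called by either tool and 1 at an unadjusted p under 0.05.

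Of 5 interferon signaling genes tested, 0 were called by edgeR or DESeq2 at either time, 0 had an unadjusted p under 0.05, and 4 of 5 were below 0 at 3 weeks. Socs1, an inhibitor induced by interferon, had the smallest p at 3 weeks, at 0.97, 1.05 and 0.95 CPM without and 0.29, 0.76 and 0.11 CPM with lactation (-1.10, 95% interval -2.23 to 0.03, edgeR adjusted p = 0.24). The lactating values rested on 9, 47 and 1 counts, and without 3wk SBI + Lac library 2 the difference was -2.06. The receptor Ifngr1 differed by -0.24 and Irf1, a factor that switches on Psmb9, by -0.37, but by -0.06 and -0.03 without 3wk SBI library 3. At 1 week the smallest p belonged to the kinase Jak2 (-0.28, edgeR adjusted p = 0.42). Ifng itself was too low to be tested.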

How the data were processed

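Messenger RNA of 12 pubocaudalis libraries (4 groups of 3, RNA of 2 rats each) was sequenced with a stranded kit. The authors deposited raw counts per gene at 1 week. The 3-week values the authors deposited are estimated counts, with decimals in 26.6% to 44.0% of values per library, and were rounded here. Neither was normalized for depth. The submitters' processing notes name Salmon. Its version, the build and the annotation used are not given in the sources used here. Planning had assumed counts throughout. Totals ran from 10082734 to 75634391.

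The main test was edgeR 4.0.16 (R 4.3.3): TMM scaling, the filterByExpr filter (14599 genes), a quasi-likelihood fit over 12 libraries and Benjamini-Hochberg adjustment over all genes, called at 0.05. Intervals (95%) came from the standard error and the t distribution. CPM are TMM-scaled. The study's tool, DESeq2 (1.42.0 here), its fold cutoff of 1, RLE and upper-quartile scaling, other filters, unrounded values, equal depth, a replicate block and leaving out each library were alternatives. Permutation tests and motif searches used Python 3.11.15 and scipy 1.17.1. On simulated data with 14161 genes at 1 week and 14131 at 3 weeks, the test called 91 and 92 of 100 genes changed by 1 log2 unit. Only genes above a minimum level were changed, another 100 were changed by 2 log2 units, and counts were drawn at the fitted spread. The result therefore does not give the power for single genes of low level and wide spread such as Psmb8.

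Named were all immunoproteasome genes, Psmb5, Psmb6 and Psmb7, per role and comparison the members with the smallest p and the largest change, members called, and the 3 genes of smallest p per list, except some that are not reported here. Other genes were named after their values were seen. The members and lists were chosen with earlier results of these data known. Libraries of a group differed beyond counting noise; separate pools carry different rats' labels, so p-values measure the spread between pools. Correlations with leukocyte markers and leaving out libraries for lists, markers and counts of non-overlap were added after seeing the data.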

Additional observations from a re-analysis of the deposited data

How the results depend on the processing

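The same-numbered libraries did not deviate together (correlations from -0.233 to 0.2), so the numbers were not taken as pairs. With a replicate block the count of members called at 3 weeks against 1 week with lactation was 0 instead of 1 (Psme2 adjusted p = 0.070), and no other count of members called changed with it. That count was also 0 at equal depth, with each library left out and with the fold cutoff of 1, and 2 in fits to the 6 libraries compared, by edgeR and by DESeq2 (Psme2 and Psme1). Over all genes these fits called 1047 of 13646 genes tested (edgeR) and 1370 of 18805 genes with counts (DESeq2). For lactation at 3 weeks DESeq2 called 2 members on all 12 libraries and 1, Psmb8, on the 6 compared, against 0 in edgeR. Over all genes DESeq2 called 7.34% on the 12 libraries and 675 of 18954 genes with counts on the 6 compared. Without 3wk SBI replicate 3 the comparison of 3 weeks with 1 week without lactation called 1 member, Psme3ip1, against 14.1% of all genes (0 to 1 members over the libraries left out). At 1 week 14 instead of 26 constitutive genes were above 0 with lactation when every library needed at least 10 counts.

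With a library left out, the immunoproteasome median for lactation at 3 weeks ran from -0.67 to -0.22, the constitutive genes above 0 numbered 14 to 30 at 1 week and 18 to 34 at 3 weeks, members without overlap numbered 0 to 3 lower and 5 to 11 higher at 1 week and 4 to 8 higher at 3 weeks, and the 1-week differences of the log2 ratios ran from -0.38 to 0.14 (Psmb8 to Psmb5) and from -0.67 to 0.0033 (Psmb9 to Psmb6). The counts without overlap then compare fewer libraries, where groups separate more easily. No share over all genes stands beside them, so they are not a result about the members. Single genes whose sign turned had these log2 fold changes over the libraries left out. For lactation at 1 week they were -0.0097 to 0.072 (Psmb7), -0.34 to 0.23 (Psmb8), -0.64 to 0.11 (Psmb9), -0.12 to 0.10 (Psme1), -0.073 to 0.10 (Psme2) and -0.12 to 0.37 (Socs1), and at 3 weeks -0.018 to 0.14 (Psmb5), -0.0046 to 0.24 (Psmb6), -0.042 to 0.12 (Psmb7), -0.20 to 0.30 (Rps27a) and -0.16 to 0.068 (Trim63). For the interaction they were -0.052 to 0.18 (Psmb1), -0.011 to 0.10 (Psmb3), -0.12 to 0.034 (Psmb5), -0.10 to 0.14 (Psmb6), -0.069 to 0.094 (Psmb7) and -0.62 to 0.24 (Psmb9). Over time they were -0.041 to 0.11 (Psmb7) and -0.54 to 0.31 (Psmb9) without lactation and -0.003 to 0.11 (Psmb7) with it.

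Signs of values near 0 also turned under other settings. Psme2 at 1 week was -0.015 with upper-quartile scaling, -0.0028 in the fit to the 6 libraries compared, -0.001 with no filter, -0.029 with at least 10 counts and -0.012 at equal depth. Psmb7 was -0.0051 at 1 week with at least 10 counts, and over time without lactation -0.011 in the 6-library fit, -0.011 with at least 10 counts and -0.0021 at equal depth. In the interaction at equal depth Psmb5 was 0.023 and Psmg2 0.093. Rps27a at 3 weeks was -0.0034 at equal depth. Akirin2 lost its call at 3 weeks in the 6-library fits of both tools, with no filter, with the replicate block and at equal depth. The causes were not tested. Depth limits the lowest genes, of which Psmb8, Psmb9, Nlrc5 and Socs1 had 14, 35, 13 and 1 counts in 3wk SBI + Lac replicate 3.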
